A study of Rattus norvegicus with 21 samples.

Results

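Transcripts assigned to complement genes were measured in rat spinal cord microglia and in total spinal cord after antibiotics had been given into the airway. The 3 genes were chosen by identifier out of 32883 rat Ensembl gene IDs in the count tables: ENSRNOG00000012807 (C1qa), ENSRNOG00000012804 (assigned to C1qb) and ENSRNOG00000046834 (C3). All 3 passed the filter on low counts in every model. The rats were wild type, of the LEW/Crl strain and 6 to 8 weeks old, and were treated through the trachea for 7 days with neomycin (NEO), vancomycin (VANCO) or phosphate-buffered saline (PBS, the control). Sorted microglia gave 4 libraries per treatment (numbers 1, 2, 3 and 5) and total cord gave 3 per treatment (numbers 1, 2 and 3). Myelin was taken out on a Percoll gradient from every sample, total cord included, and microglia were then sorted as CD45low CD11b+ cells. Whether animals were pooled for a library is not stated in the labels, and the p-values therefore measure only how much these samples spread, which may be technical.

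The complement cascade is a set of proteins of innate immunity that tag particles for removal. C1q, the recognition part of the classical pathway, is built from A, B and C chains encoded by C1qa, C1qb and C1qc, and its binding activates the proteases that lead to cleavage of C3. C3 is the protein on which the pathways of activation meet, and its fragments mark targets for phagocytes that carry complement receptor CR3, of which CD11b is a subunit. In mice, microglia are the main source of C1q in the central nervous system, and C3 is also made by reactive astrocytes.

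The files pair no ID with a symbol, and 0 of the 32883 IDs could be matched to symbols in the RefSeq table used here, so the names C1qa and C3 rest on the assignment that chose them. In RefSeq assembly GRCr8, C1qc lies between C1qb and C1qa on chromosome 5. Whether ENSRNOG00000012804 is the B chain or the C chain gene was not settled from these sources, and it is called by its ID. For the same reason the levels of C1qc, C4, the C3 receptors and the regulators of the cascade were not analysed here, and the sorted cells were not checked against microglial markers.

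The 250 bases before the annotated start of C1qa and of C3 are shown as a description. They come from RefSeq (GRCr8, both on the minus strand) and are written 5′ to 3′ in the direction of the gene. Whether they bear on the levels of these genes was not tested. The sequences lie at chr5:154419934-154420183 for C1qa and at chr9:2201340-2201589 for C3. Capitals mark GGAAGT, a core of the sites bound by ETS factors, in C1qa, and TTGCG, which is part of the sites bound by C/EBP factors, in C3.
C1qa: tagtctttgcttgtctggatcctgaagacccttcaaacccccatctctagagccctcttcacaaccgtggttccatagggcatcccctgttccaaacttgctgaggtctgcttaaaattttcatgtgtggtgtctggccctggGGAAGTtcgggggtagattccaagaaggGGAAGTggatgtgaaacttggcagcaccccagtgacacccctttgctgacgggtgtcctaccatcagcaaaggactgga
C3: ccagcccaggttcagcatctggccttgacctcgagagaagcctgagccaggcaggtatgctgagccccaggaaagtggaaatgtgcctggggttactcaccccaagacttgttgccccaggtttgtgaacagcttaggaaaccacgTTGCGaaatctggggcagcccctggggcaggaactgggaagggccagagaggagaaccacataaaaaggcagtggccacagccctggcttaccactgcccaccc
The C1qa sequence held GGAAGT in 2 places, with first bases 107 and 79 bases before the start. The C3 sequence held this whole word nowhere, although its first letters, GGAA, do occur there. On either strand, GGAAGT was present in 19.22% of 33469 RefSeq promoter sequences of the same length. TTGCG was found once before C3, with its first base 104 bases before the start, and nowhere in the C1qa sequence, and 14.95% of the promoter sequences held it. Both motifs were chosen after the sequences were seen, and a match of letters is a description that does not show binding. The sequences of both genes were somewhat richer in G and C, at 52.4% for C1qa and 58.8% for C3, than the median promoter at 51.2%.

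Library totals were 9020480 to 22435887 counts in microglia and 16769410 to 25114844 in total cord. C1qa, ENSRNOG00000012804 and C3 had between 8745 and 147077 counts in a microglia library and between 731 and 3986 in a cord library, so counting error takes a larger part of the spread in cord than in microglia. Microglia NEO library 2 stood apart. The 954 genes at least 64-fold higher in PBS cord than in PBS microglia made up 2.49% of its counts, against 0.0335% to 0.288% in the other 11 microglia libraries. The 945 genes at least 8-fold higher in PBS microglia than in PBS cord made up 22.8% of its counts, against 27.9% to 33.3% in the others. PBS library 2 and VANCO library 2 had the highest cord-enriched shares of their groups, at 0.288% and 0.285%. Results in microglia that rest on NEO library 2 or PBS library 2 are given with and without them.

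Levels are given as CPM, which are counts scaled to the same library total. CPM is not divided by gene length, so the levels of different genes are not ranked against each other. In microglia, C1qa had 3734, 2881, 4449 and 4569.7 CPM in the NEO libraries. It had 3593, 4560.4, 3849.9 and 4011 CPM in the VANCO libraries, and 3628, 4767, 3698 and 3896 CPM in the PBS libraries. The ranges of the treatments overlapped, and the lowest of the 12 values was that of NEO library 2. In total cord, C1qa had 127, 151 and 137 CPM in NEO, 125, 117 and 129.9 CPM in VANCO, and 119.6, 125 and 119 CPM in PBS. Every microglia value was far above every cord value, a gap for which no share over all genes was computed. In the cord all NEO values lay above all PBS values, which 2.53% of all 14677 genes tested in cord also showed. On the scale of the test, with TMM factors, C1qa overlapped between NEO and PBS cord.

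ENSRNOG00000012804 had 1209, 806 and 1604 CPM in NEO microglia libraries 1, 2 and 3, and 1544 CPM in library 5. It had 1098, 1331, 1290.5 and 1383 CPM in VANCO microglia, and 1174, 1417, 1243 and 1166 CPM in PBS microglia. The NEO group held both the lowest value, in library 2, and the highest, in library 3. In total cord the values were 49.7, 60.5 and 47.2 CPM in NEO, 48.1, 45.1 and 42.8 CPM in VANCO, and 44.1, 47.0 and 43.6 CPM in PBS. Here too the NEO values lay above all PBS values, with the lowest of NEO (47.2 CPM) next to the highest of PBS (47.0 CPM). This stands beside 2.53% of all 14677 genes tested in cord. With TMM factors it held as well, beside 3.27% of all genes.

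C3 had 6282, 6446, 5585 and 6101 CPM in NEO microglia. It had 6477, 7200.2, 5212 and 5121 CPM in VANCO microglia, and 5648, 7978, 5142 and 6555 CPM in PBS microglia. The highest C3 value was that of PBS library 2, and NEO library 2, lowest for C1qa and for ENSRNOG00000012804, was the highest of its group for C3. In total cord, C3 had 198, 165 and 159 CPM in NEO, 162, 152 and 144 CPM in VANCO, and 173, 150.2 and 171 CPM in PBS. The 3 treatments overlapped for C3 in both tissues.

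**Figure D1:**
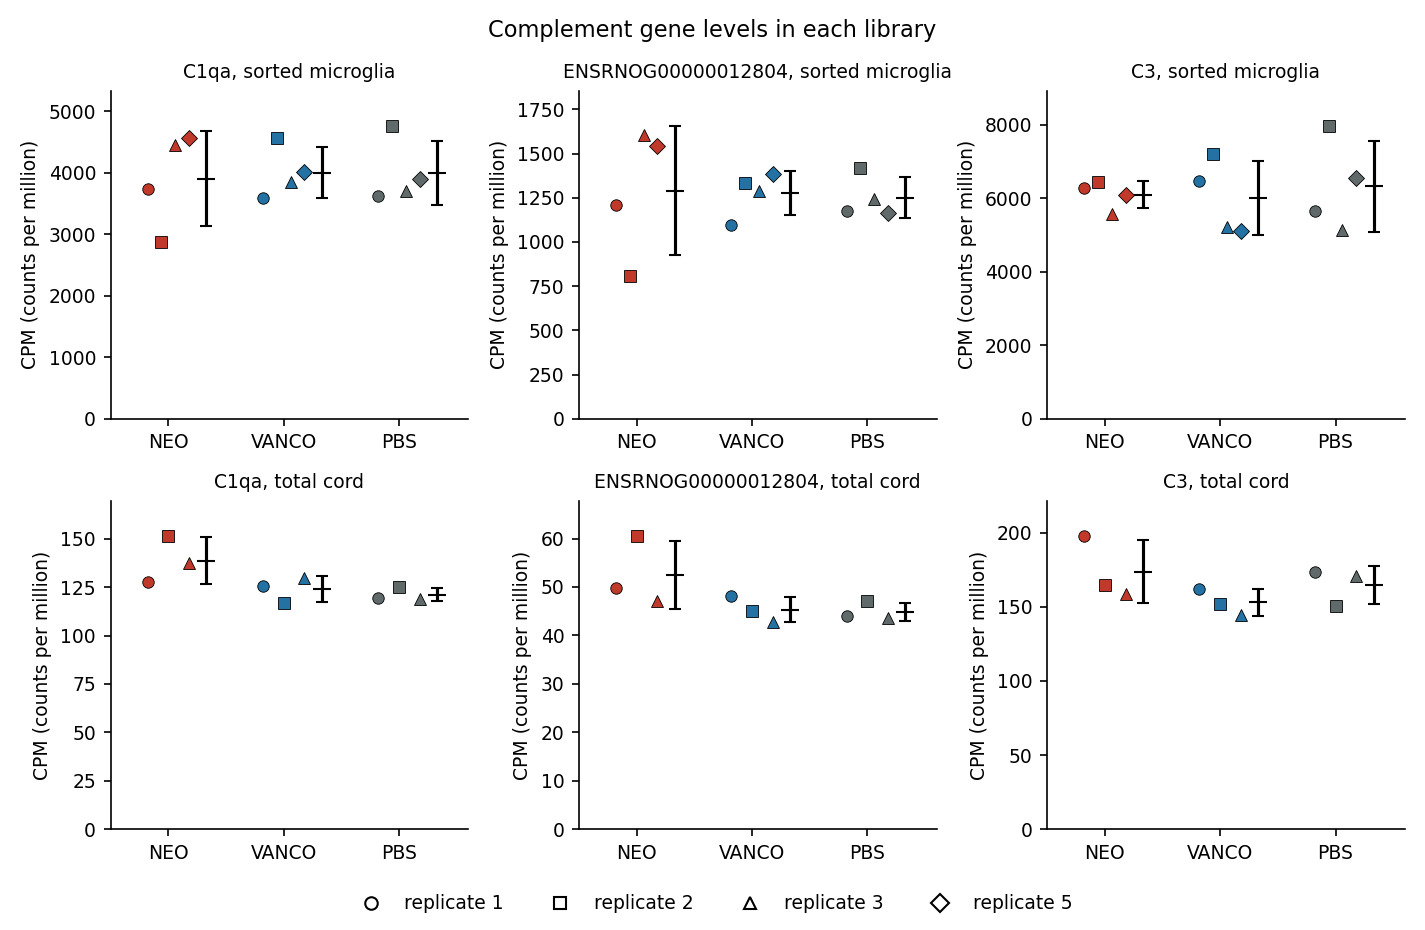
CPM of C1qa, ENSRNOG00000012804 and C3 (columns) in every library of sorted microglia (upper row) and total cord (lower row), with points for libraries, symbols for replicate numbers, and a bar for the mean with 1 SD (n = 4 per microglia group, n = 3 per cord group). The axes of the upper row span far higher CPM than those of the lower row, and NEO replicate 2 is the lowest microglia point for C1qa (2881 CPM) and for ENSRNOG00000012804 (806 CPM).

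The order of the 6 groups was read from their means. For C1qa the order was VANCO microglia (4003 ± 409 CPM), PBS microglia (3997 ± 526), NEO microglia (3908 ± 778), NEO cord (139 ± 12.03), VANCO cord (124 ± 6.64) and PBS cord (121 ± 3.24; SD, n = 4 in microglia and n = 3 in cord). For ENSRNOG00000012804 it was NEO microglia (1291 ± 367 CPM), VANCO microglia (1276 ± 124), PBS microglia (1249.9 ± 117), NEO cord (52.5 ± 7.09), VANCO cord (45.3 ± 2.64) and PBS cord (44.9 ± 1.84). For C3 it was PBS microglia (6331 ± 1244 CPM), NEO microglia (6103 ± 374), VANCO microglia (6003 ± 1010), NEO cord (174 ± 21.04), PBS cord (165 ± 12.7) and VANCO cord (153 ± 8.99). The step between the last microglia group and the first cord group was free of overlap for all 3 genes, and neighbours within a tissue overlapped at every other step. The share of all genes without overlap between the tissues was not computed. Since 84% of 15546 genes were called between PBS microglia and PBS cord, such a gap is not particular to these genes.

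All 3 genes were higher in PBS microglia than in PBS total cord. C1qa, a chain of the recognition protein, was 33.005-fold higher by mean CPM, with a log2 fold change of 4.92 (SE 0.19, adjusted p = 1.52e-13 by edgeR's quasi-likelihood test). ENSRNOG00000012804 was 27.8-fold higher (log2 fold change 4.68, SE 0.22, adjusted p = 1.56e-12), and C3, the central component, was 38.4-fold higher (5.15, SE 0.19, adjusted p = 8.68e-14). The call of 3 of 3 genes stands beside 84% of all 15546 genes that were called in this comparison in either direction, and 85.9% with the replicate number as a block. That block joins same-number libraries across the tissues, although the numbers were not found to pair libraries there. By size, 18.1%, 19.8% and 16.4% of all genes had a larger absolute log2 fold change than C1qa, ENSRNOG00000012804 and C3. Scaling mattered for these values, because the median gene stood at 0.21 with TMM factors and at -0.29 with RLE factors. With RLE factors the log2 fold changes of the 3 genes were 4.42, 4.17 and 4.64. As folds, the model with TMM factors gave 30.4, 25.6 and 35.4, below the folds by mean CPM. Relative to the median gene the 3 genes stood 4.71, 4.47 and 4.93 higher with TMM factors and 4.71, 4.46 and 4.93 higher with RLE factors. A change of factors moves all genes by nearly the same amount, so this likeness was set in advance. With TMM factors 6991 genes were called higher and 6074 lower in microglia, and with RLE factors 5143 higher and 7367 lower. The folds between the tissues were of like size in treated animals, at 28.2 in NEO and 32.3 in VANCO for C1qa, 24.6 and 28.1 for ENSRNOG00000012804, and 35.1 and 39.3 for C3. Total cord and sorted cells differ in dissection, sorting and cell mixture at once, and in bulk RNA fewer cells of a type and less RNA per cell cannot be told apart.

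In sorted microglia, neither antibiotic gave a difference in the 3 genes that passed the test. Between NEO and PBS microglia the log2 fold change was -0.04 for C1qa (SE 0.16, 95% interval -0.38 to 0.31, adjusted p = 0.977 by edgeR). It was 0.04 for ENSRNOG00000012804 (SE 0.18, interval -0.35 to 0.44) and -0.05 for C3 (SE 0.18, interval -0.44 to 0.34). As folds, the intervals ran between 0.739 and 1.36 over the 3 genes, so changes of that size in either direction remained possible. By edgeR 0 of 3 genes were called, 0 had an unadjusted p under 0.05, and DESeq2 called 0. Among all 12570 genes tested, 0.0398% were called here, and 0.748% with the replicate number as a block in the model.

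The values of NEO and PBS microglia depended on single libraries of both groups. Without NEO library 2 the log2 fold change of C1qa changed sign to 0.07 and that of ENSRNOG00000012804 was 0.20, with adjusted p = 0.999 for both, while that of C3 was -0.10. Without PBS library 2 the values were 0.10 for C1qa and 0.12 for C3, both of changed sign, and 0.14 for ENSRNOG00000012804 (adjusted p = 0.853, 0.827 and 0.828 by edgeR). With the block and without NEO library 2 the log2 fold change was 0.19 for C1qa (adjusted p = 0.129), 0.27 for ENSRNOG00000012804 (adjusted p = 0.0706) and 0.06 for C3. Both C1q IDs were higher in NEO than in PBS in 3 of 4 same-number pairs, the exception being number 2, and C3 was higher in 2 of 4. The share of all genes with such counts was not computed. NEO library 2 had both the largest cord-enriched share and the lowest C1q values, whereas PBS library 2 and VANCO library 2, with the largest shares of their groups, had the highest C1qa of their groups (4767 and 4560.4 CPM).

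VANCO and PBS microglia, which share the PBS libraries with the comparison above, differed by log2 fold changes of -0.004 for C1qa, 0.02 for ENSRNOG00000012804 and -0.08 for C3 (SE 0.16, 0.18 and 0.18). Without PBS library 2 these were 0.13, 0.13 and 0.09, with changed sign for C1qa and C3. With all libraries the adjusted p was 1.00 for each by edgeR, with 0 of 3 called, 0 at an unadjusted p under 0.05 and 0 by DESeq2, beside 0% of all genes. NEO and VANCO microglia differed by -0.03, 0.02 and 0.03 for the same genes (adjusted p = 0.999 for each by edgeR). Here too 0 of 3 were called, 0 had an unadjusted p under 0.05 and DESeq2 called 0, beside 0% of all genes and 0.167% with the block. Without NEO library 2 these values were 0.08 for C1qa, 0.18 for ENSRNOG00000012804 and -0.02 for C3 (adjusted p = 1.00 for each by edgeR). The spread of VANCO microglia was small for both C1q IDs and larger for C3, in which libraries 1 and 2 (6477 and 7200.2 CPM) were well above libraries 3 and 5 (5212 and 5121 CPM).

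In total cord, both C1q IDs had higher values after NEO than after PBS, by amounts that did not pass correction. C1qa averaged 139 ± 12.03 CPM in NEO cord and 121 ± 3.24 CPM in PBS cord (SD, n = 3 each). Its log2 fold change was 0.21 (SE 0.09, 95% interval 0.01 to 0.41, a fold of 1.16), with an unadjusted p of 0.0441 and an adjusted p = 1.00 by edgeR. ENSRNOG00000012804 averaged 52.5 ± 7.09 CPM in NEO cord and 44.9 ± 1.84 CPM in PBS cord, a log2 fold change of 0.23 (SE 0.10, interval 0.02 to 0.45, a fold of 1.18, unadjusted p 0.0320 by edgeR). C3 averaged 174 ± 21.04 CPM in NEO cord and 165 ± 12.7 CPM in PBS cord, and its log2 fold change was 0.08 (SE 0.08, interval -0.10 to 0.26, unadjusted p 0.339 by edgeR). Both C1q IDs were higher in 3 of 3 same-number pairs and C3 in 2 of 3. The share of all genes higher in 3 of 3 pairs was not computed, so these counts are a description only.

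By edgeR 0 of the 3 genes were called between NEO and PBS cord, and DESeq2 called 0, beside 0% of all 14677 genes called by edgeR. An unadjusted p under 0.05 by edgeR was found for 2 of the 3 genes and for 400 of all 14677. With the block the adjusted p was 0.150 for C1qa, 0.144 for ENSRNOG00000012804 and 0.681 for C3, and 0.681% of all genes were called. In that model the SE was 0.061 for C1qa and 0.068 for ENSRNOG00000012804, with unadjusted p of 0.00235 and 0.00210 by edgeR. There an unadjusted p under 0.05 was found for 2 of the 3 genes, beside 1507 of all 14677. For 2 of the 3 genes every NEO value lay above every PBS value, and 2.53% of all genes tested showed this. With the TMM factors of the test this held for 1 of the 3 genes, ENSRNOG00000012804, beside 3.27% of all genes. On that scale C1qa had 122 CPM in NEO library 1, against 125 and 123 CPM in PBS libraries 2 and 3, so its groups overlapped. A lower unadjusted p than that of C1qa was found for 2.40% of all genes in this comparison, and a lower one than that of ENSRNOG00000012804 for 1.76%. NEO cord library 2 held the highest value of both C1q IDs, and without it the log2 fold changes were 0.14 for C1qa, 0.12 for ENSRNOG00000012804 and 0.12 for C3. The size of the difference in ENSRNOG00000012804 rested on that library more than that in C1qa. Leaving out NEO library 1 gave 0.30 for both C1q IDs and 0.019 for C3, and leaving out PBS library 2 gave 0.023 for C3.

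The cord values were also set against the 945 microglia-enriched genes, whose share of cord counts was 1.52% ± 0.0876 in NEO and 1.46% ± 0.0428 in PBS. Those genes were chosen as low in the same PBS cord libraries. That choice can lower the PBS share and raise the PBS values on this scale. Per 1000 counts of those genes, C1qa had 9.17 ± 0.929 in NEO cord and 8.28 ± 0.323 in PBS cord, a difference of 0.14 on the log2 scale (p = 0.3, exact two-sided permutation test, adjusted p = 0.54 over 9 tests). ENSRNOG00000012804 had 3.46 ± 0.380 in NEO cord and 3.07 ± 0.151 in PBS cord, a difference of 0.17 (exact permutation p = 0.2), and C3 had 11.4 ± 1.01 and 11.3 ± 0.874. The ranges of NEO and PBS overlapped for all 3 genes on this scale, and with 3 libraries against 3 the smallest possible p is 0.1. The microglia-enriched share itself overlapped between the groups, and its part in the C1q values was not tested beyond this.

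VANCO cord and PBS cord gave no difference that passed the test. The log2 fold changes were 0.04 for C1qa, 0.02 for ENSRNOG00000012804 and -0.10 for C3 (SE 0.09, 0.10 and 0.08, adjusted p = 1.00 for each by edgeR). By edgeR 0 of 3 were called, 0 had an unadjusted p under 0.05 and DESeq2 called 0, beside 0% of all genes and 0.00681% with the block. NEO cord against VANCO cord gave 0.17 for C1qa (SE 0.09, unadjusted p 0.0946), 0.22 for ENSRNOG00000012804 (SE 0.10, unadjusted p 0.0443) and 0.19 for C3 (SE 0.08, unadjusted p 0.0443 by edgeR). All 3 genes were higher in NEO in 3 of 3 same-number pairs, but the share of all genes with that pattern was not computed. The ranges overlapped, the adjusted p was 1.00 for each by edgeR, and 0 of 3 were called by edgeR or by DESeq2. An unadjusted p under 0.05 was found by edgeR for 2 of the 3 genes, beside 331 of all 14677. By DESeq2 it was found for 1 of the 3, beside 191 of all genes. With the block the adjusted p was 0.379, 0.263 and 0.246 in the same order, beside 0% of all genes called without the block and 0.436% with it. An unadjusted p under 0.05 by edgeR with the block was found for 3 of the 3 genes, beside 1295 of all 14677. With the block and without the libraries numbered 2, C3 was called (0.22, adjusted p = 0.0251 by edgeR), a setting chosen after the data were seen. The share of all genes called in that setting was not computed, so whether this call is unusual cannot be told. Over all comparisons and alternative settings of the 3 genes, this was the 1 result that gained a call. The others comprised 455 that kept sign and call and 81 that changed sign.

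**Figure D2:**
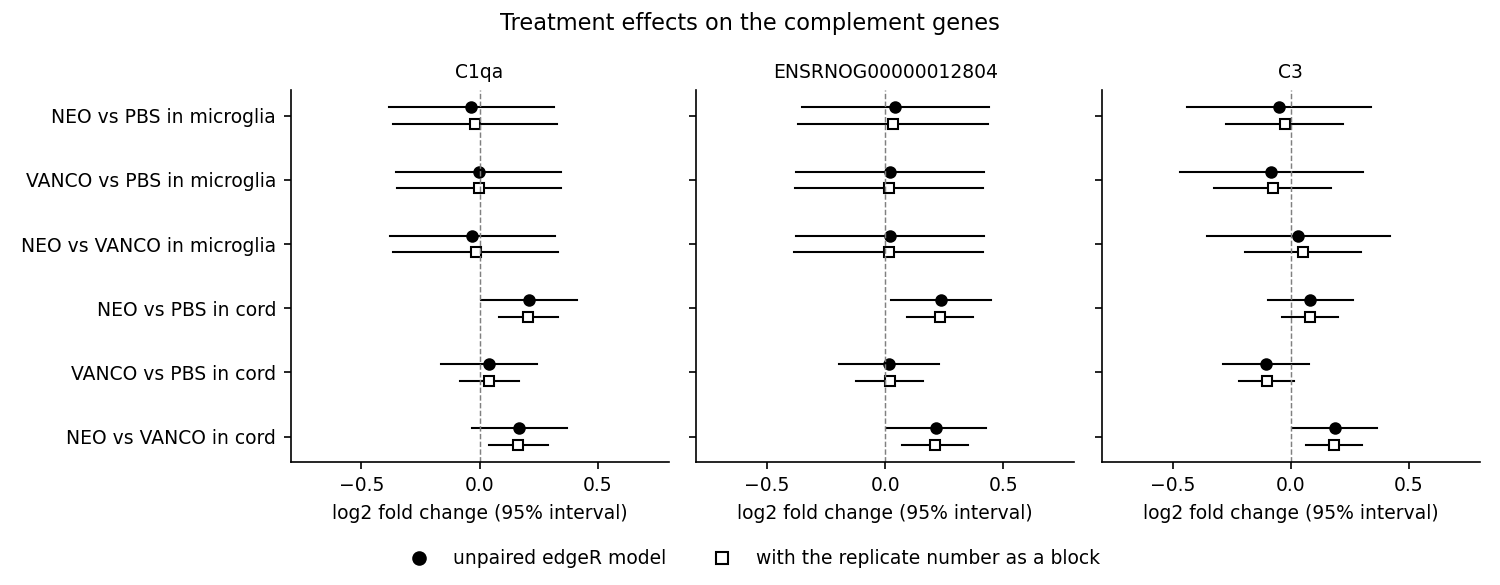
Log2 fold changes with 95% intervals (x axis) of the 3 genes (panels) in the 6 treatment comparisons (y axis), from the unpaired edgeR model (filled circles) and with the replicate number as a block (open squares). The microglia values lie near 0 with wide intervals, and the NEO values for both C1q IDs in total cord lie at 0.21 and 0.23 against PBS, with narrower intervals.

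Whether NEO acted differently in the tissues was tested as an interaction. The effect in microglia minus that in cord was -0.27 for C1qa (SE 0.22), -0.21 for ENSRNOG00000012804 (SE 0.25) and -0.17 for C3 (SE 0.22), with an adjusted p = 1.00 for each by edgeR. Without NEO microglia library 2 it was -0.13, -0.03 and -0.17, with the same adjusted p. For VANCO it was -0.06, -0.01 and 0.01, again with an adjusted p = 1.00 for each. In both interactions 0 of 3 genes were called by edgeR or by DESeq2 and 0 had an unadjusted p under 0.05, beside 0% of all genes, and 0.193% for NEO and 0.116% for VANCO with the block. The absence of a call in microglia beside unadjusted p-values under 0.05 in cord is therefore no shown difference between the tissues.

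Ratios of counts within a library do not depend on its total. In microglia the ratio of ENSRNOG00000012804 to C1qa was 0.325 ± 0.034 in NEO, 0.319 ± 0.025 in VANCO and 0.314 ± 0.019 in PBS (SD, n = 4 each), and in cord it was 0.378 ± 0.030, 0.366 ± 0.032 and 0.371 ± 0.005 for the same treatments (n = 3 each). The ratio thus varied little between treatments. The ratio of C3 to C1qa was 1.63 ± 0.447 in NEO microglia, 1.503 ± 0.237 in VANCO microglia and 1.58 ± 0.136 in PBS microglia, and it was 1.27 ± 0.250 in NEO cord, 1.24 ± 0.108 in VANCO cord and 1.36 ± 0.139 in PBS cord. The highest C3 ratio of all was 2.24 in NEO microglia library 2. Without that library the ratio of C3 to C1qa in NEO microglia differed from that in PBS microglia by -0.15 on the log2 scale (exact permutation p = 0.286), against 0.01 with it. In 12 exact two-sided permutation tests of these ratios between treatments, each adjusted p was 1, and the smallest unadjusted p the design allows is 0.0286 with 4 libraries against 4 and 0.1 with 3 against 3.

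Between the tissues the ratio of ENSRNOG00000012804 to C1qa differed in PBS animals without overlap, at 0.297 to 0.336 in microglia and 0.367 to 0.377 in cord. The difference was -0.24 on the log2 scale, with an exact permutation p = 0.0571, which is the smallest this design can give, and an adjusted p = 0.114 over 2 ratios. The ratio of C3 to C1qa was 0.21 higher on the log2 scale in PBS microglia than in PBS cord (exact permutation p = 0.171), and its ranges overlapped. In treated animals the tissues overlapped in the ratio of ENSRNOG00000012804 to C1qa, at 0.280 to 0.360 in NEO microglia and 0.344 to 0.400 in NEO cord, and at 0.292 to 0.345 in VANCO microglia and 0.329 to 0.386 in VANCO cord. This comparison of ratios was added after the data were seen. The share of other gene pairs whose ratio lacks overlap between the tissues was not computed. Since 84% of 15546 genes were called between PBS microglia and PBS cord, this gap cannot be called particular to these genes.

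**Figure D3:**
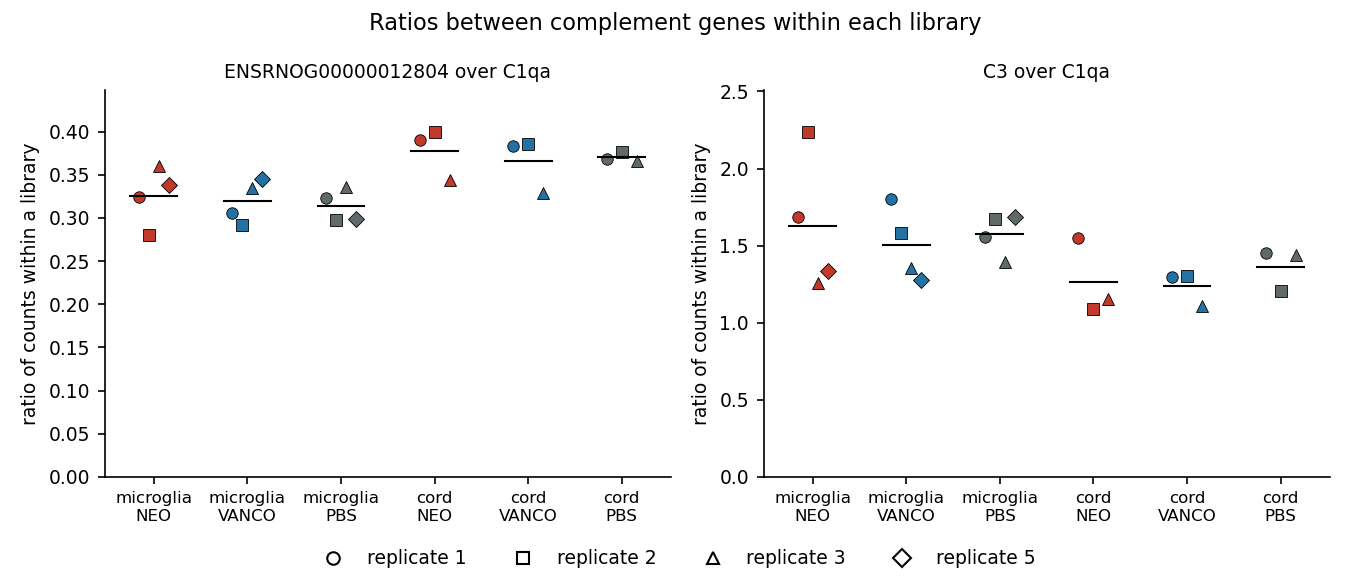
Ratio of counts of ENSRNOG00000012804 to C1qa (left) and of C3 to C1qa (right) in every library, with symbols for replicate numbers and a line at the mean of each group (n = 4 in microglia, n = 3 in cord). PBS cord libraries lie above all PBS microglia libraries on the left, where the tissues overlap in both treated groups. NEO microglia replicate 2 is the highest point on the right at 2.24.

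The libraries of a tissue were then compared without regard to treatment, with 6 correlations of log2 CPM between the genes. Across the 12 microglia libraries, C1qa and ENSRNOG00000012804 varied together (Pearson's r = 0.913, permutation p = 0.00022, adjusted p = 0.00132, and Spearman's rho = 0.860, adjusted permutation p = 0.00432). The relation kept an r of 0.843 without NEO library 2 and PBS library 2, which lay farthest from the median of C1qa. Without NEO library 2 alone, r was 0.820 (adjusted permutation p = 0.0152). It was 0.917 for deviations from the treatment means and 0.975 for deviations from the means of same-number libraries. For C3 no relation passed the test, with r = 0.268 and rho = 0.203 against C1qa (adjusted permutation p = 0.707 for r) and r = -0.120 against ENSRNOG00000012804 (adjusted permutation p = 0.855). Without NEO library 2 these were r = 0.508 (adjusted permutation p = 0.226) and r = -0.032. Between C1qa and C3, r was 0.0044 without PBS library 2 and 0.562 for deviations from the means of same-number libraries (adjusted permutation p = 0.108). All pairs share the library total as denominator, and only 3 libraries share a number, too few for a value within each number. The permutations in both tissues shuffled libraries without regard to number or treatment, so their p-values may be too small.

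Across the 9 cord libraries C1qa and ENSRNOG00000012804 had r = 0.804 and rho = 0.517 (permutation p = 0.0207 for r, adjusted p = 0.0621). Without NEO libraries 2 and 3, the farthest from the median of C1qa, r was 0.310, so the relation rests on those libraries. For deviations from the treatment means r was 0.592 (adjusted permutation p = 0.278), and for deviations from the means of same-number libraries, which keep the differences between treatments, it was 0.926 (adjusted permutation p = 0.0018). These permutations shuffled all 9 values freely, although deviations from a shared mean are not independent, so the p-values may be too small. C3 had r = -0.031 with C1qa (adjusted permutation p = 0.931), or -0.633 for deviations from the treatment means, and r = 0.254 with ENSRNOG00000012804 (adjusted permutation p = 0.707).

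Likeness to C1qa was also measured over all genes, as the correlation of deviations from the treatment means across the 12 microglia libraries. Here log2 CPM was scaled with TMM factors and a small count was added. The correlations above used CPM without these factors, so values for the same pair differ. On that earlier scale, r between C1qa and C3 in microglia was 0.276 for deviations from the treatment means. Among the 12569 other genes tested, ENSRNOG00000012804 ranked 95 for likeness to C1qa, at r = 0.904, and C3 ranked 2184, at r = 0.434. In cord the corresponding values were r = 0.646 for ENSRNOG00000012804, at rank 1580, and r = -0.683 for C3. ENSRNOG00000012749, the ID listed just before ENSRNOG00000012804 in the files, ranked 3 for likeness to C1qa in microglia, at r = 0.983, and 86 in cord, at r = 0.899. It had 2022 to 2959 CPM in microglia and 69.4 to 96.0 CPM in cord, and it was picked after its values were seen. It and the other genes most like C1qa could not be named, since their IDs are paired with no symbol.

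**Figure D4:**
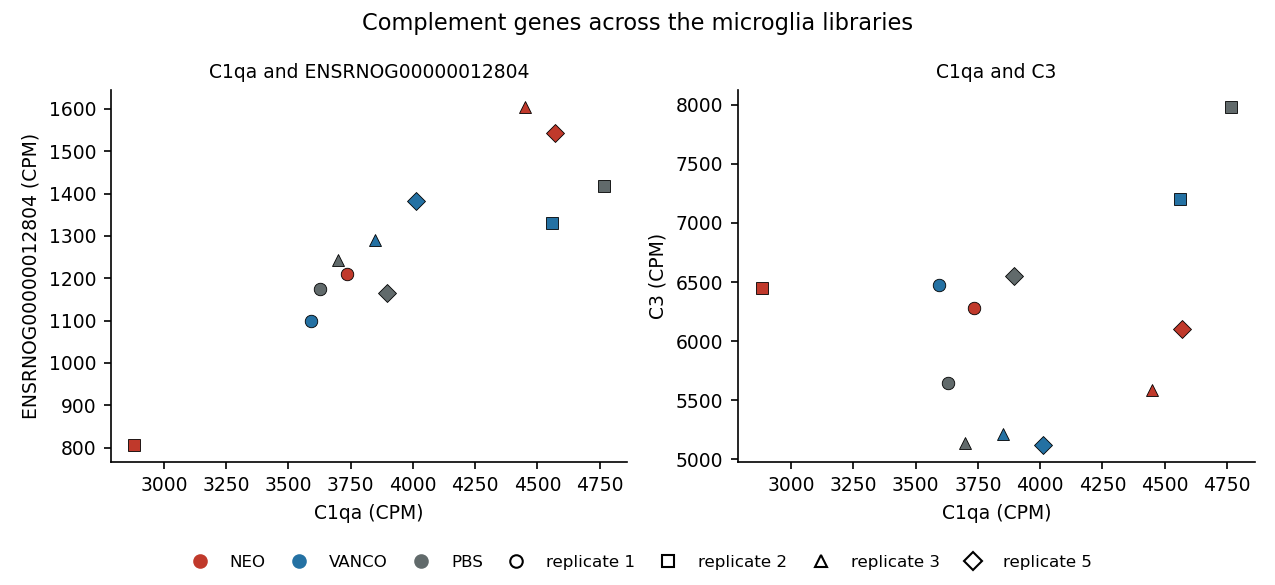
CPM of C1qa (x axis) against CPM of ENSRNOG00000012804 (left) and of C3 (right) in the 12 microglia libraries, coloured by treatment with symbols for replicate numbers; the axes do not start at 0. The points on the left run along a rising line (r = 0.913 on the log2 scale), and those on the right do not (r = 0.268).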

How the data were processed

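RNA of sorted spinal cord microglia (12 libraries) and total spinal cord (9 libraries) was analysed. The authors deposited 1 table of raw counts per library, with 32883 Ensembl gene IDs each, and the values were whole numbers. The submitters' processing notes name the rn6 build, featureCounts (1.5.0-p1), STAR (2.5.2a) and bcl2fastq (2.20.0.422). Strand, annotation version and multimapping rules are not given there, which leaves counts of overlapping or near-identical genes uncertain. Groups and replicate numbers came from the sample titles. No pair of libraries was identical, and the 27 pairs within a group differed by more than sampling noise (chi-square of 8.35 to 221 per degree of freedom).

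Counts were tested with edgeR 4.0.16 in R 4.3.3 (filterByExpr, TMM factors, robust quasi-likelihood F test, Benjamini-Hochberg adjustment over all genes tested, threshold 0.05), in models of the microglia (12570 genes), of the cord (14677 genes) and of all 21 libraries (15546 genes, for tissue comparisons). A log2 fold change is positive when the group named first is higher. Intervals are 95% intervals from the model. Alternatives were DESeq2 1.42.0, RLE factors, no filter on low counts, the replicate number as a block, and leaving out each library. The block with libraries left out, the microglia-enriched denominator, the ratio between tissues and the TMM-scaled overlap in cord were added after the data were seen. Ratios and correlations used Python 3.11.15 and SciPy 1.17.1. Permutation was exact for ratios and for correlations in cord, and used 100000 resamples for correlations in microglia. The code was tested on simulated data.

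Same-number libraries of different treatments deviated together within a tissue (correlation across genes 0.244 to 0.794 over 12 pairs in microglia and 0.359 to 0.588 over 9 pairs in cord). Different-number pairs gave -0.553 to 0.343 over 36 pairs in microglia, overlapping the same-number range, and -0.485 to 0.009 over 18 pairs in cord. Deviations within a group cancel out, which pushes different-number values down when same-number values are positive. The numbers were taken to pair the libraries within a tissue, from these data and not from any label. Across tissues same-number libraries did not deviate together (-0.262 to 0.280 over 27 pairs). The genes, lists and tests were chosen with earlier results of these data known. The planned lists of other complement genes and of cell type markers needed symbols and were not used.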

Additional observations from a re-analysis of the deposited data

Results flagged for a closer look

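In the 24 combinations of a microglia group and a measure that were screened, 4 had 1 library far from the other 3 of its group, where chance alone gives about 5% of groups, and none of the 4 was a level of C1qa, ENSRNOG00000012804 or C3. Cord-enriched genes took 2.49% of counts in NEO library 2, against 0.0335% to 0.0920% in the other NEO libraries. Microglia-enriched genes took 22.8% of counts in the same library, against 31.4% to 32.9% in the others. Cord-enriched genes took 0.288% of counts in PBS library 2, against 0.0757% to 0.103% in the other PBS libraries. VANCO library 3 had a total of 20936827 counts (2.0937e+07), against at most 15319914 in the other VANCO libraries. Without PBS library 2 the log2 fold change of C1qa was 0.10 between NEO and PBS microglia and 0.13 between VANCO and PBS microglia, and that of C3 was 0.12 and 0.09. Without VANCO library 3 the log2 fold change between VANCO and PBS microglia was 0.02 for C1qa and -0.02 for C3. None of these was called by edgeR.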

How the results depend on the processing

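DESeq2, RLE factors, the absence of a filter and the replicate block changed no call of the 3 genes in any comparison, and the calls between microglia and cord held without each library in turn. Counts of called genes did change. Between NEO and PBS microglia, DESeq2 called 66 genes, RLE factors 2, the absence of a filter 9 and the block 94, against 5. Between NEO and VANCO microglia DESeq2 called 16 and the block 21, and between VANCO and PBS microglia DESeq2 called 5, against 0 in both. In cord, DESeq2 called 26, the absence of a filter 15 and the block 100 between NEO and PBS, and 25, 13 and 64 between NEO and VANCO, against 0 in both; the block called 1 between VANCO and PBS. The tissue difference of NEO had 30 calls with the block, and that of VANCO 18 with the block and 1 by DESeq2, against 0. With 1 library left out, with or without the block, the calls ranged over 0 to 300 for NEO and PBS microglia, the highest being with the block and without NEO library 2, 0 to 7 for VANCO and PBS microglia, 0 to 75 for NEO and VANCO microglia, 0 to 89, 0 to 4 and 0 to 64 for the same comparisons in cord, and 0 to 1 for the tissue difference of NEO, for which libraries were left out without the block only. With 1 library left out, with or without the block, or 1 replicate number left out with the block, the log2 fold changes in microglia were -0.13 to 0.20 for C1qa, -0.10 to 0.29 for ENSRNOG00000012804 and -0.15 to 0.12 for C3 between NEO and PBS. They were -0.10 to 0.14 for C1qa, -0.078 to 0.19 for ENSRNOG00000012804 and -0.21 to 0.092 for C3 between VANCO and PBS. They were -0.12 to 0.19 for C1qa, -0.11 to 0.25 for ENSRNOG00000012804 and -0.055 to 0.16 for C3 between NEO and VANCO. None was called and their signs are not settled. Between VANCO and PBS cord they were -0.014 to 0.12 for C1qa and -0.061 to 0.094 for ENSRNOG00000012804, and C3 was 0.12 to 0.23 between NEO and VANCO cord, where it was called at 0.22 with the block and without number 2. That setting was chosen after the data were seen, and the share of all genes called in it was not computed. Between NEO and PBS cord the log2 fold changes were 0.13 to 0.30 for C1qa, 0.12 to 0.30 for ENSRNOG00000012804 and 0.019 to 0.17 for C3. With 1 library left out and no block, the tissue difference of VANCO was -0.16 to 0.071 for C1qa, -0.061 to 0.087 for ENSRNOG00000012804 and -0.13 to 0.17 for C3. Leaving out 1 library, the log2 ratio of ENSRNOG00000012804 to C1qa differed by -0.0036 to 0.12 (NEO and PBS), -0.015 to 0.065 (VANCO and PBS) and -0.027 to 0.095 (NEO and VANCO) in microglia, and by -0.017 to 0.091, -0.061 to 0.054 and -0.029 to 0.11 in cord. That of C3 to C1qa differed by -0.15 to 0.12 (NEO and PBS microglia), -0.076 to 0.20 (NEO and VANCO microglia) and -0.14 to 0.12 (NEO and VANCO cord). Of the correlations, ENSRNOG00000012804 and C3 in microglia changed sign to 0.093 without the 2 farthest libraries and to 0.403 for deviations within replicate numbers. In cord, C1qa and ENSRNOG00000012804 had r from 0.364 to 0.898 with 1 library left out, with an adjusted permutation p = 0.02002 without VANCO library 3, and r = 0.926 within numbers. C1qa and C3 in cord had r from -0.166 to 0.045 with 1 library left out, -0.633 for deviations from group means and 0.194 within numbers, and ENSRNOG00000012804 and C3 had -0.098 for deviations from group means. Causes of these shifts were not tested. With 3 or 4 libraries per group the precision, not the depth, limits the treatment comparisons: the coefficient of biological variation by edgeR was 19.4% to 21% for the 3 genes in microglia and 8.65% to 9.38% in cord. The replicate block across tissues could not pair libraries, as stated with the processing. Names rest on an assignment of IDs that no file here contains.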
